A study of Homo sapiens with 96 samples.

Results

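Splicing of the genes for nucleoporins and nuclear transport receptors was examined in A549 cells after inhibition of protein arginine methyltransferases (PRMTs). The set was taken by name and holds 52 of the 14359 genes with a listed splicing event. Every skipped exon (SE), mutually exclusive exon pair (MXE), alternative 3′ or 5′ splice site (A3SS and A5SS), and retained intron (RI) of these genes was kept, which gave 2053 of 239131 listed events. A549 cells are an established human line of lung adenocarcinoma origin. GSK591 inhibits PRMT5, and MS023 inhibits the Type I PRMTs. Each inhibitor was used at 1 µM, alone for 2, 4, or 7 days and together (co-treatment) for 2 or 4 days, and control cells were kept in 0.01% DMSO for 4 or 7 days. Each of these 10 groups had 3 libraries, here lettered a, b, and c by their position in the tables. The 2-day inhibitor libraries were set against the 4-day DMSO libraries, so for these the culture time and the treatment cannot be told apart. The control of the 7-day groups was inferred from the labels to be DMSO at 7 days.

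The nuclear pore complex is a ring of nucleoporins that joins the nucleus and the cytoplasm. A scaffold of Y complexes and inner ring proteins holds central channel nucleoporins, whose phenylalanine-glycine repeats let transport receptors through. Importins carry proteins with nuclear localization signals inward, exportins carry proteins and RNAs outward, and the small GTPase Ran sets the direction. PRMTs methylate arginines in RNA-binding and splicing proteins, and their inhibition is known to alter splicing.

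For each event and library the inclusion level Ψ is the share of transcripts that hold the alternative segment, from reads of the inclusion form and of the skipping form, each divided by the effective length of that form. ΔΨ is the mean Ψ with inhibitor minus the mean Ψ in DMSO, with n = 3 libraries in every group. An event was tested where every library had at least 10 reads, and was called at an adjusted p under 0.05 by a quasi-binomial model across libraries. As nothing in the labels says that the libraries of a group came from separate cultures, p-values measure the spread between these libraries, which may be technical. Libraries held 72359972 to 107061919 reads on listed events, with a read counted in each event it belongs to. Of the epithelial markers, KRT8 had 187877 reads on its deepest event in DMSO at 4 days, CDH1 522, and EPCAM 73, and KRT19 had 0 listed events. Of the markers of other cells, COL1A1 had 150 reads, and PTPRC, CD3E, PECAM1, VWF, and COL1A2 had 0 listed events. Listed events do not measure expression. Libraries of a group differed by 1.60 to 3.22 times the sampling variance. Library a of GSK591 at 2 days had the most reads of all but few on NUP62 junctions, and those counts are given with NUP62.

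Of the 2053 member events, 1909 were tested in at least 1 of the 8 comparisons with DMSO, and 228 of them were called at least once (11.9%, against 16.6% of all events tested), in 45 of the 52 genes. The genes with no called event were NUP37, NUP43, NUP133, RANBP2, RAE1, KPNA2, and KPNA6. Among SE, 168 of 1245 tested events were called in at least 1 comparison (13.5%, background 17.3%), and among RI 12 of 23 were (52.2%, background 53.2%). The corresponding counts were 27 of 553 for MXE (4.88%, background 9.61%), 12 of 59 for A3SS (20.3%, background 17.2%), and 9 of 29 for A5SS (31%, background 31.2%). The member shares thus lay near or below those over all events, A3SS being slightly above on 59 events. Many events share a segment, so the 1909 tested events cover 1288 distinct segments and the 228 called events cover 196.

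GSK591 changed 51 of 1043 member events at 2 days (4.89%, against 7.02% of all events tested). At 4 days it changed 81 of 1024 (7.91%, background 11.2%), and at 7 days 41 of 815 (5.03%, background 8.93%). The counts with MS023 were 31 of 988 at 2 days (3.14%, background 3.16%), 33 of 945 at 4 days (3.49%, background 3.75%), and 25 of 851 at 7 days (2.94%, background 4.75%). Co-treatment changed 116 of 1136 member events at 2 days (10.2%, background 13.4%) and 113 of 1037 at 4 days (10.9%, background 14.7%). The member shares were near or below the background in all 8 comparisons, so the counts show no change particular to pore and transport genes.

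**Figure D1:**
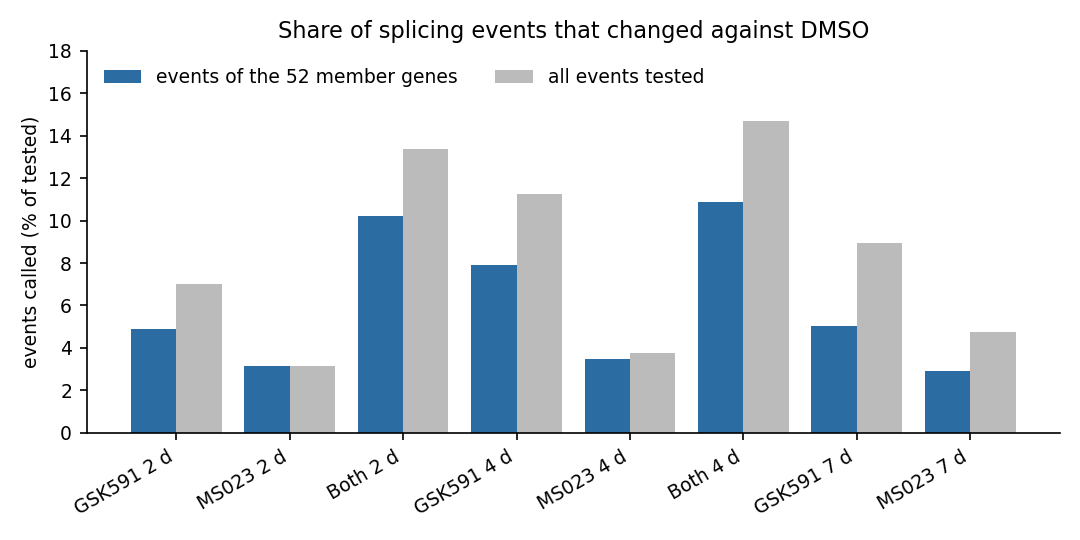
Percent of tested splicing events called at an adjusted p under 0.05 against DMSO, for events of the 52 member genes (blue) and for all events tested (grey), in the 8 comparisons. The member bars lie at or below the grey bars, from 2.94% with MS023 at 7 days to 10.9% with co-treatment at 4 days.

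Called member exons were mostly skipped more often. With GSK591, 32 of 695 SE were called lower at 2 days (background 5.82%), 47 of 702 at 4 days (background 8.07%), and 20 of 570 at 7 days (background 4.96%). With MS023 the lower SE were 22 of 679 at 2 days (background 2.63%), 21 of 665 at 4 days (background 2.77%), and 13 of 585 at 7 days (background 2.47%). Co-treatment lowered 80 of 765 SE at 2 days (background 11.5%) and 62 of 712 at 4 days (background 10.6%). Between 2 and 19 SE were called higher in each comparison. The fewest were 2 of 679 with MS023 at 2 days, against 816 of 78541 over all SE. The most were 19 of 712 with co-treatment at 4 days, against 3228 of 80463. Over all SE, too, lower calls outnumbered higher ones, with 4479 against 1029 for GSK591 and 9295 against 1885 for co-treatment at 2 days. The exception was MS023 at 7 days, with 1779 lower and 1781 higher. The median ΔΨ over tested member events lay between -0.0019 and -0.00047 in the 8 comparisons, and that over all events between -0.0022 and -0.00023.

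Few introns of these genes were listed, and in GSK591 and co-treatment most of the called ones were retained more often. GSK591 raised 4 of 22 RI at 2 days (background 24%), 9 of 22 at 4 days (background 33.9%), and 6 of 22 at 7 days (background 21.8%). Co-treatment raised 6 of 23 at 2 days (background 29.7%) and 8 of 23 at 4 days (background 33.6%). MS023 raised 1 of 23 at 2 days (background 1.44%), 2 of 22 at 4 days (background 1.57%), and 3 of 22 at 7 days (background 1.93%). The single RI raised by MS023 at 2 days was the NUP62 leader intron described with that gene. Overlapping forms of this same intron were counted apart. At 7 days the RI raised by MS023 included NUP62 RI b and RI c, and those raised by GSK591 included NUP62 RI a, RI b, and RI c. Lower RI calls numbered 1 each with GSK591 at 2 and 4 days (background 2.38% and 4.32%) and with MS023 at 2 and 4 days (background 4.21% and 5.6%), and the other 4 comparisons had none (background 5.03% and 6.1% with co-treatment at 2 and 4 days, and 6.1% and 9.49% with GSK591 and MS023 at 7 days). Over all genes MS023 lowered more RI than it raised, with 166 against 57 at 2 days, 221 against 62 at 4 days, and 369 against 75 at 7 days.

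The exons that fell were compared with all tested member exons, counting each pair of exon ends only 1 time. Overlapping forms of an exon thus count apart. At 2 days of co-treatment 33 of 59 fallen exons (55.9%) had a length divisible by 3, against 232 of 524 tested exons (44.3%), and at 4 days 21 of 43 did (48.8%, against 44.4%). With GSK591 the share was 9 of 20 at 2 days (45%, against 44.3%), 14 of 31 at 4 days (45.2%, against 42.7%), and 9 of 13 at 7 days (69.2%, against 44.6%). With MS023 it was 11 of 17 at 2 days (64.7%, against 45.3%), 10 of 19 at 4 days (52.6%, against 44.7%), and 7 of 12 at 7 days (58.3%, against 44.2%). The share was higher among the fallen exons in all 8 comparisons, on few exons in most of them and with DMSO libraries shared between comparisons. No such share was computed over all genes, so it cannot be called particular to the members. Fallen exons were less often reference exons, with 54.8% against 83.6% with GSK591 at 4 days and 50% against 81.9% with MS023 at 7 days. The exception was GSK591 at 7 days, with 84.6% against 81%. Length itself had no common direction. The median of the fallen exons was 121.5 nt, 114 nt, and 108 nt with GSK591 at 2, 4, and 7 days (126 nt, 125 nt, and 122 nt for the tested exons) and 122 nt with co-treatment at both times (126 nt at both). With MS023 it was 135 nt, 145 nt, and 149 nt (126 nt, 124.5 nt, and 122 nt). These values are descriptions without a test.

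By the rule that fixed them, 23 events of 12 genes are described individually below, and they were called 95 times against DMSO. A limma model on the log2 odds of each library, a more conservative test here, kept 24 of the 95, and its adjusted p is given beside the calls described. Segments are named by gene and event type, with a letter where a gene has several.

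**Figure D2:**
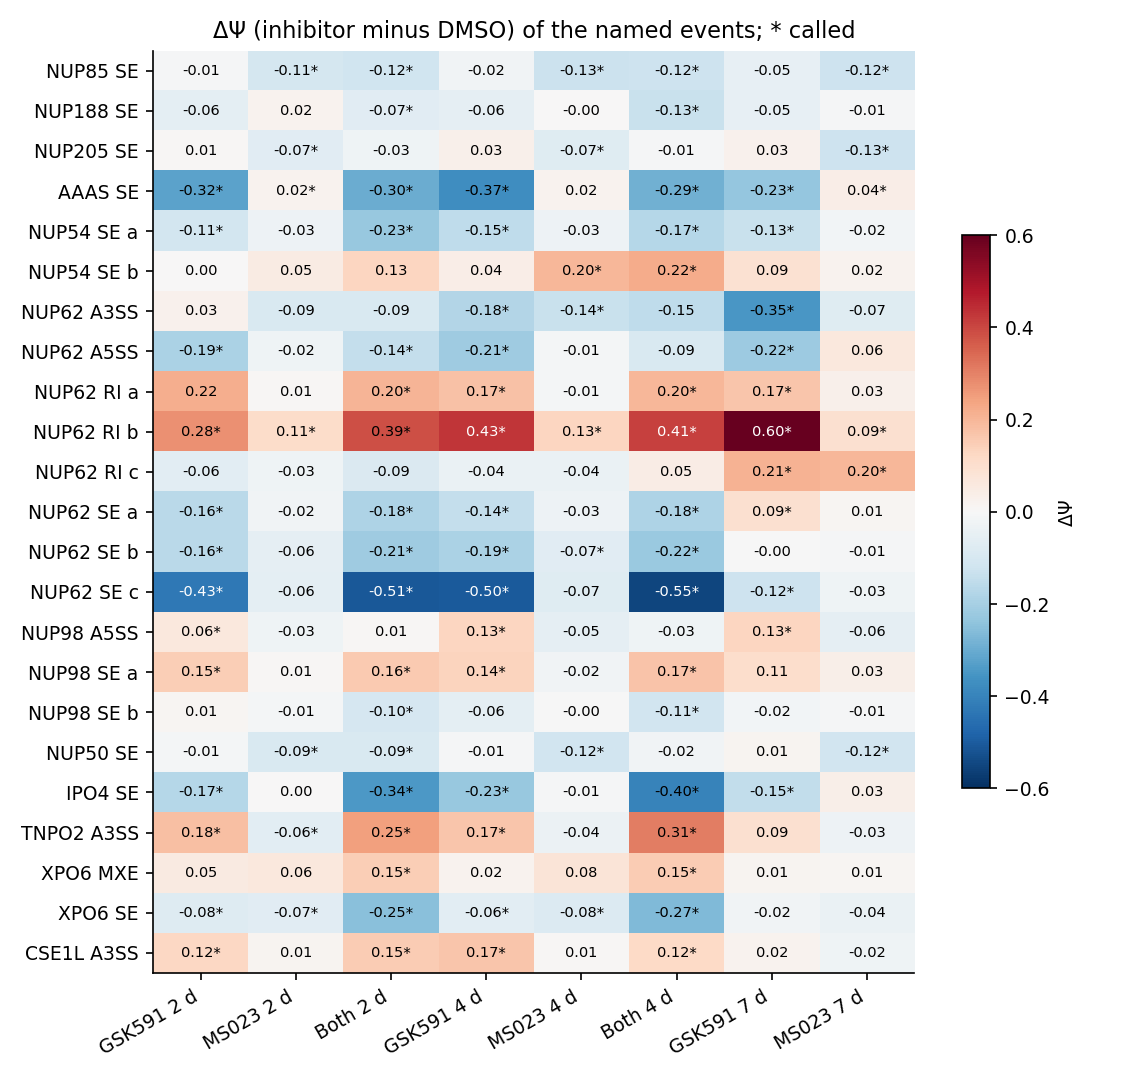
ΔΨ (inhibitor minus DMSO) of the 23 described events in the 8 comparisons with DMSO, in red where inclusion was higher and in blue where it was lower, with an asterisk on called values. GSK591 and co-treatment columns share the strong values of AAAS, NUP62, IPO4, TNPO2, and CSE1L, while NUP85, NUP205, and NUP50 are called with MS023 and not with GSK591 alone.

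NUP62 is a central channel nucleoporin with phenylalanine-glycine repeats. It held the largest called ΔΨ, among events with at least 50 reads, in 7 of the 8 comparisons. Of its 41 tested events 22 were called at least once (background 16.6%), and they fall on 12 of its 14 tested segments. The events described here lie in the 5′ leader on chromosome 19 (hg19, minus strand). There the first exon ends at either of 2 donors 91 nt apart, and the middle leader exon starts at either of 2 acceptors 33 nt apart. The middle exon is 122 nt in its reference form (chr19:50430951-50431072, exon 2 of 3 of the transcript NUP62-201) and 155 nt in its longer form (chr19:50430951-50431105). The last exon, which follows a 17809 nt intron, is spliced to the middle exon or directly to the first exon. Since each of the events rests on these same junctions, the 8 NUP62 events described here are not independent.

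The splice sites are shown because the choice between them defines each event. Donors are 3 exon bases and 6 intron bases, acceptors 20 intron bases and 3 exon bases, read 5′ to 3′ from GRCh37, with the intron's terminal GT or AG in capitals.
NUP62 donor of the short first exon: gagGTaagc
NUP62 donor of the long first exon: gtgGTgagc
NUP62 acceptor of the longer middle exon: actgggccctcctccaccAGccg
NUP62 acceptor of the shorter middle exon: ccgtcttttctctgttgcAGaaa
NUP62 donor of the middle exon: gcgGTacac
The acceptor of the longer form had 13 pyrimidines in its 20 intron bases, and that of the shorter form had 15.

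Ψ of the longer middle exon after the short first exon (NUP62 SE c) fell with GSK591 and with co-treatment. Its inclusion reads include those inside the exon and across its 3′ junction, which transcripts with the long first exon share. In DMSO at 4 days only 3, 5, and 4 reads joined the short first exon to it (the spliced reads of NUP62 RI c, described below). Ψ was 0.809, 0.802, and 0.810 there and does not give the share of short-first-exon transcripts that held the exon. With GSK591 it was 0.288, 0.419, and 0.431 at 2 days and 0.336, 0.239, and 0.336 at 4 days. Co-treated libraries had 0.345, 0.311, and 0.243 at 2 days and 0.255, 0.287, and 0.221 at 4 days. All 12 of these libraries lay below all 3 DMSO libraries. ΔΨ was -0.428 (adjusted p = 1.65e-11) and -0.503 (2.03e-17) for GSK591, and -0.507 (8.13e-18) and -0.553 (2e-16) for co-treatment. By limma the adjusted p was 0.114 for GSK591 at 2 days and 0.0135 to 0.0359 for the other 3. With MS023 at 4 days Ψ was 0.732, 0.748, and 0.716, and ΔΨ of -0.075 was not called (adjusted p = 0.141).

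Reads of both forms moved. Reads that skip the exon numbered 38, 43, and 38 in DMSO at 4 days and 63, 111, and 97 with GSK591 at 2 days. Reads of the inclusion form fell from 328, 355, and 331 to 52, 163, and 150. Those that join the short first exon to the longer middle exon were 3, 5, and 4 and then 3, 7, and 8. The fall thus lay in reads shared with transcripts of the long first exon. How often the exon was skipped after the short first exon cannot be read from them. The same exon after the long first exon (NUP62 SE b) fell by 0.164 and 0.188 with GSK591 at 2 and 4 days and by 0.213 and 0.224 with co-treatment (adjusted p = 1.81e-06, 5.36e-09, 3.62e-11, and 1.44e-09; limma 0.145 to 0.474). Ψ of the shorter form of the exon (NUP62 SE a) fell by 0.145 to 0.185 in the same 4 comparisons (limma 0.242 to 0.466). The shorter form lies within the longer one and reads inside it count for both, so this Ψ does not give the share of the shorter form alone. With MS023 at 4 days SE b was called lower by a smaller amount (ΔΨ -0.069, adjusted p = 0.0168; limma 0.801), a call kept in 1 of the 6 fits that each left out a library. In that comparison 10 of 130 events of the central channel genes were called (background 3.75%), 7 of them of NUP62. The opposite strand gene ATF5 does not overlap this exon, while IL4I1 and a readthrough gene on the same strand do.

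At 7 days the falls in Ψ of these middle exon events with GSK591 were smaller or absent. NUP62 SE c had Ψ of 0.587, 0.603, and 0.721 in DMSO and 0.540, 0.533, and 0.470 with GSK591 (ΔΨ -0.123, adjusted p = 0.00221; limma 0.593), and this call was lost with each library left out in turn. Ψ of SE a, which does not isolate the shorter form, moved upward, from 0.229, 0.292, and 0.338 to 0.349, 0.400, and 0.392 (ΔΨ 0.094, adjusted p = 7.5e-05, lost without any of 5 of the 6 libraries; limma 0.651). Tested as an interaction of treatment and day, the GSK591 effect differed between 7 and 4 days by 0.381 for SE c, 0.239 for SE a, and 0.184 for SE b (adjusted p = 1.84e-06, 2.45e-05, and 0.00086; limma 0.296, 0.509, and 0.587). The DMSO libraries themselves were lower at 7 than at 4 days in all 3 events.

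**Figure D3:**
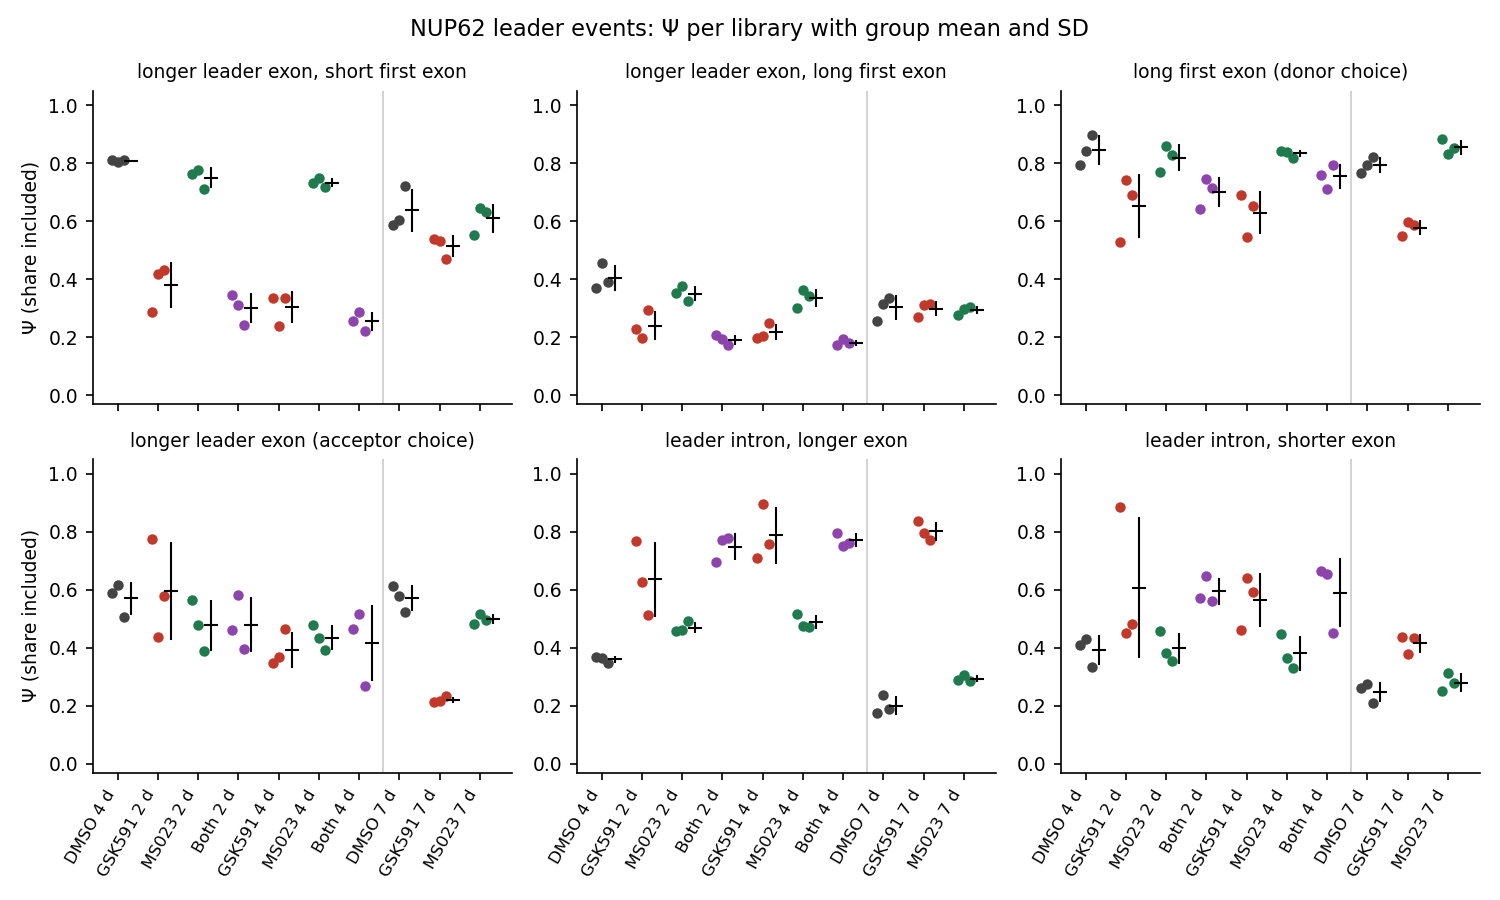
Ψ per library (points, 0 to 1) with group mean and SD (bars, n = 3) for 6 NUP62 leader events in the 10 groups, grey for DMSO, red for GSK591, green for MS023, purple for co-treatment, with a vertical line before the 7-day groups. The panels are, in reading order, SE c, SE b, A5SS, A3SS, RI b, and RI a. GSK591 and co-treatment libraries lie below DMSO for the middle exon at 2 and 4 days and above it for the leader intron RI b at every day.

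Choice of the first exon's donor moved as well. The long first exon (NUP62 A5SS, alternative part chr19:50432583-50432673) had Ψ of 0.792, 0.843, and 0.896 in DMSO at 4 days, and 0.690, 0.546, and 0.651 with GSK591 at 4 days (ΔΨ -0.215, adjusted p = 0.00121; limma 0.0766). At 7 days it had 0.766, 0.795, and 0.820 in DMSO and 0.549, 0.597, and 0.586 with GSK591 (ΔΨ -0.217, adjusted p = 1.3e-05; limma 0.077). The GSK591 libraries lay below all DMSO libraries at both times. At 2 days ΔΨ was -0.191 with GSK591 (adjusted p = 0.0193; limma 0.173) and -0.144 with co-treatment (adjusted p = 0.0308; limma 0.156), and these calls were kept in 3 and 1 of the 6 fits that each left out a library. With co-treatment at 4 days the groups overlapped and ΔΨ of -0.090 was not called. ATF5 on the opposite strand overlaps the alternative part of this event. Reads inside that part count as inclusion, and the share of ATF5 reads in this Ψ was not tested. Selection of the longer middle exon (NUP62 A3SS, alternative part chr19:50431073-50431105) stood at 0.613, 0.579, and 0.523 in DMSO at 7 days and at 0.214, 0.217, and 0.233 with GSK591 (ΔΨ -0.35, adjusted p = 4.79e-09; limma 0.0858). At 4 days it was called lower by 0.177 with GSK591 and by 0.135 with MS023 (adjusted p = 0.0459 and 0.0319; limma 0.312 and 0.597), each call kept in 1 of the 6 fits that each left out a library. At 2 days this acceptor choice was spread widely with GSK591, at 0.773, 0.438, and 0.578, and was not called. Library a of that group had only 31 reads on it (25 and 6 for the longer and shorter form), against 123 and 115 in libraries b and c.

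The leader intron between the long first exon and the longer middle exon (NUP62 RI b, chr19:50431106-50432582, 1477 nt) was called higher in all 8 comparisons. Its Ψ was 0.369, 0.365, and 0.347 in DMSO at 4 days, 0.769, 0.626, and 0.512 with GSK591 at 2 days, and 0.708, 0.895, and 0.758 at 4 days. In DMSO at 7 days it was 0.174, 0.237, and 0.189, and with GSK591 0.836, 0.795, and 0.772 (ΔΨ 0.601, log2 odds difference 4.01 ± 0.35 SE, adjusted p = 3.82e-10; limma 0.00365). No GSK591 or co-treatment library overlapped DMSO. The rise with MS023 was 0.110, 0.128, and 0.094 at 2, 4, and 7 days (adjusted p = 0.041, 0.0155, and 0.0121), with limma at 0.198 to 0.359, and the 2-day call was lost with each library left out in turn. The 4-day call was lost without library a or b of MS023, and the 7-day call without library b of MS023 or library a or c of DMSO.

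Counts of both forms show what moved. Reads across the spliced junction fell from 102, 118, and 117 in DMSO at 4 days to 14, 30, and 36 with GSK591 at 2 days, and from 99, 86, and 106 to 10, 11, and 14 at 7 days. Reads counted as intron inclusion did not rise at 2 days, with 650, 740, and 677 in DMSO and 510, 547, and 412 with GSK591, but at 7 days they were 227, 291, and 269 in DMSO and 557, 465, and 518 with GSK591. The intron overlaps ATF5, a transcription factor gene on the opposite strand. Reads across an exon-skipping junction of ATF5 numbered 456, 362, and 452 in DMSO at 4 days and 259, 318, and 252 with GSK591 at 2 days, then 170, 150, and 187 in DMSO at 7 days and 543, 467, and 544 with GSK591. The ATF5 reads were thus lower where the intron reads were lower and higher where they were higher, and their part in the retention values was not tested. Whether rMATS counted by strand is not given in the sources used here, and without strand the reads of both genes cannot be told apart.

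**Figure D4:**
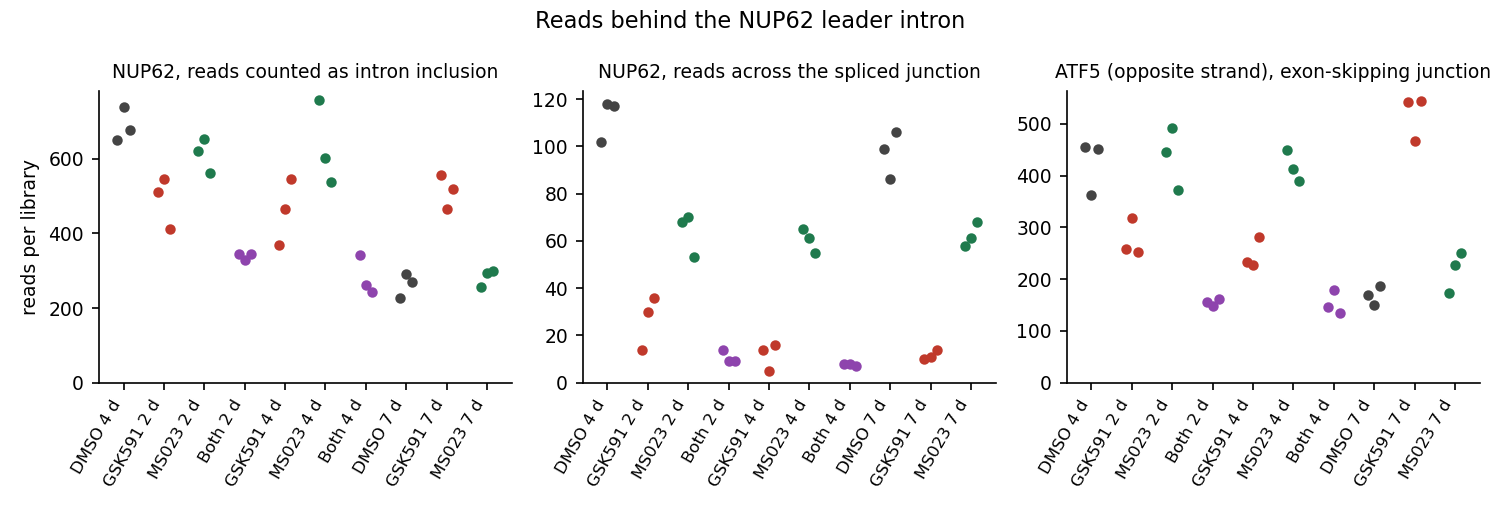
Reads per library behind the NUP62 leader intron RI b in the 10 groups, coloured as in the plot of leader events. The panels give reads counted as intron inclusion, reads across the spliced junction, and reads across an exon-skipping junction of ATF5 on the opposite strand. Junction reads are lowest in GSK591 and co-treatment groups, between 5 and 36, while inclusion reads and ATF5 reads are both low in DMSO at 7 days and both high with GSK591 at 7 days.

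The reference form of the intron (NUP62 RI a, chr19:50431073-50432582, intron 1 of NUP62-201) was called higher with co-treatment at both times and with GSK591 at 4 and 7 days, by 0.168 to 0.203 (limma 0.0336 and 0.0842 with co-treatment, 0.081 and 0.0343 with GSK591). At 2 days of GSK591 its Ψ was 0.886, 0.451, and 0.483, with library a far above the others, and it was not called (ΔΨ 0.216). The form ending at the short first exon (NUP62 RI c, chr19:50431106-50432673) was called at 7 days only, by 0.210 with GSK591 and 0.201 with MS023 (adjusted p = 0.00258 and 0.024; limma 0.013 and 0.116), the MS023 call being kept in 2 of the 6 fits that each left out a library, and rested on 1 to 13 spliced reads per library in those groups.

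The other central channel members are NUP98, which also yields NUP96 from its precursor, and NUP54, a partner of NUP62. Events called at least once numbered 48 of 227 over the 3 central channel genes (21.1%, background 16.6%), of which 22 were the overlapping events of NUP62, 16 of 93 were of NUP98, and 10 of 93 of NUP54. A longer form of NUP98 exon 10, which adds 51 nt (NUP98 A5SS, chr11:3781718-3781768), rose with GSK591. Ψ was 0.252, 0.225, and 0.179 in DMSO at 4 days and 0.331, 0.357, and 0.348 with GSK591 at 4 days (ΔΨ 0.127, adjusted p = 6.84e-05; limma 0.173). Co-treatment at 4 days gave 0.182, 0.207, and 0.184, within the DMSO values and below all GSK591 libraries (co-treatment against GSK591, -0.155, adjusted p = 4.02e-08; limma 0.319). At 7 days the values were 0.235, 0.237, and 0.296 in DMSO and 0.303, 0.419, and 0.436 with GSK591 (ΔΨ 0.130, adjusted p = 0.000672; limma 0.278), a call lost without library b of either group.

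NUP98 SE a, a 131 nt form of exon 29 (chr11:3707294-3707424), rose from 0.851, 0.858, and 0.781 in DMSO to 0.957, 1.0, and 0.981 with GSK591 at 2 days (ΔΨ 0.149, adjusted p = 0.00172; limma 0.144; lost without library b of GSK591). With co-treatment it reached 0.98, 1.0, and 0.979 at 2 days and 1.0 in each library at 4 days (ΔΨ 0.156 and 0.170, adjusted p = 0.000267 and 0.000137; limma 0.0344 and 0.012). Libraries of these 3 inhibitor groups had 0 to 2 skipping reads each, and DMSO libraries 20, 20, and 31. With GSK591 at 4 days ΔΨ was 0.135 (adjusted p = 0.00695; limma 0.128), a call kept in 3 of the 6 fits that each left out a library. The 222 nt reference exon with the same flanks moved by 0.084 with GSK591 at 2 days (adjusted p = 0.00164). The 131 nt form lies within it and is annotated in 1 of 36 transcripts. Reads inside the shared part count for both forms, so Ψ does not give the share of the 131 nt form alone. NUP98 SE b, exon 24 of 33 (chr11:3721840-3722069), was called against DMSO with co-treatment and in no other comparison with DMSO. It went from 0.906, 0.927, and 0.950 in DMSO to 0.824, 0.830, and 0.830 at 2 days and 0.859, 0.804, and 0.780 at 4 days (ΔΨ -0.100 and -0.113, adjusted p = 0.000652 and 0.000241; limma 0.207 and 0.179).

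NUP54 SE a is exon 9 of 12 (chr4:77045802-77045909, 108 nt, within the coding span, minus strand). Its sequence from GRCh37 is shown for its length divisible by 3, with the exon in capitals and 20 intron bases on each side.
NUP54 exon 9: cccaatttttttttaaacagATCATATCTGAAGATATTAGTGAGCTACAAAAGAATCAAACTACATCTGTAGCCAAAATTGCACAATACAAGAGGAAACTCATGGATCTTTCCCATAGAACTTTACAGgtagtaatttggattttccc
Inclusion was 0.955, 0.912, and 0.953 in DMSO at 4 days, 0.823, 0.805, and 0.734 with GSK591 at 4 days, and 0.744, 0.681, and 0.715 with co-treatment at 2 days. The groups did not overlap, and ΔΨ was -0.153 (adjusted p = 0.000227; limma 0.132) and -0.227 (adjusted p = 1.85e-08; limma 0.0445). At 2 and 7 days GSK591 gave -0.111 and -0.133 (adjusted p = 0.00526 and 0.00779; limma 0.316 and 0.288), and those calls were kept in 2 and 1 of the 6 fits that each left out a library. NUP54 SE b, exon 5 (chr4:77055328-77055515), was the largest called value with MS023 at 4 days (ΔΨ 0.197, adjusted p = 0.0416; limma 0.431). It rested on 0 to 16 skipping reads per library, with DMSO at 0.565, 0.852, and 0.854, and the call was lost with each library left out in turn. NUP54 also had an MXE called with GSK591 at 4 days (ΔΨ 0.230, adjusted p = 0.0115, a mean of 97 reads).

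Membrane nucleoporins had 9 called events of 66 (13.6%, background 16.6%). AAAS encodes aladin, a pore protein anchored near the membrane. AAAS SE is exon 15 of 16 (chr12:53701629-53701713, minus strand, coding), whose 85 nt are not divisible by 3, between introns of 122 nt and 131 nt. Its sequence is shown because it had the largest change of any member outside NUP62 with GSK591 alone, with the exon in capitals.
AAAS exon 15: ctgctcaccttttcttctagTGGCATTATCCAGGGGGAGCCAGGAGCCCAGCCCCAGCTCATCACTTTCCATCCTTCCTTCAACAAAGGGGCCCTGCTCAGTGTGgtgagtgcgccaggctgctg
In DMSO at 4 days the exon was almost always included, with Ψ of 0.953, 0.974, and 0.955. GSK591 libraries had 0.607, 0.668, and 0.644 at 2 days and 0.549, 0.618, and 0.593 at 4 days. Co-treated libraries had 0.678, 0.669, and 0.634 at 2 days and 0.667, 0.665, and 0.690 at 4 days. No library of these 4 groups came near the DMSO values. ΔΨ was -0.321 and -0.374 with GSK591 (adjusted p = 8.72e-19 and 2.87e-23) and -0.300 and -0.287 with co-treatment (adjusted p = 3.11e-21 and 1.48e-18), with limma at 0.0146 to 0.0766. The largest of these equals a log2 odds difference of -4.12 ± 0.22 (SE).

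After 7 days AAAS exon 15 stood at 0.948, 0.948, and 0.962 in DMSO and at 0.755, 0.743, and 0.670 with GSK591 (ΔΨ -0.230, adjusted p = 2.53e-45; limma 0.059). The difference between the GSK591 effects at 7 and 4 days, 0.144, was not called (adjusted p = 0.059). MS023 moved it the other way by small amounts, to 0.996, 0.988, and 1.0 at 7 days (ΔΨ 0.042, adjusted p = 3.06e-09; limma 0.191) and to 0.982, 0.985, and 0.986 at 2 days (ΔΨ 0.023, adjusted p = 0.0228; limma 0.627; kept in 1 of 6 fits that each left out a library). Skipping reads went from 29, 20, and 32 in DMSO at 4 days to 361, 248, and 192 with GSK591 at 2 days. Set directly against MS023, GSK591 gave -0.345, -0.394, and -0.272 at 2, 4, and 7 days (adjusted p = 4.49e-38, 3.79e-48, and 8.7e-66; limma 0.04, 0.0182, and 0.0218). The other membrane members changed little, with a largest called ΔΨ of -0.017 for NUP210 and 0.077 for POM121. POM121 has a near-identical paralog, POM121C, and its reads may be split between them.

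**Figure D5:**
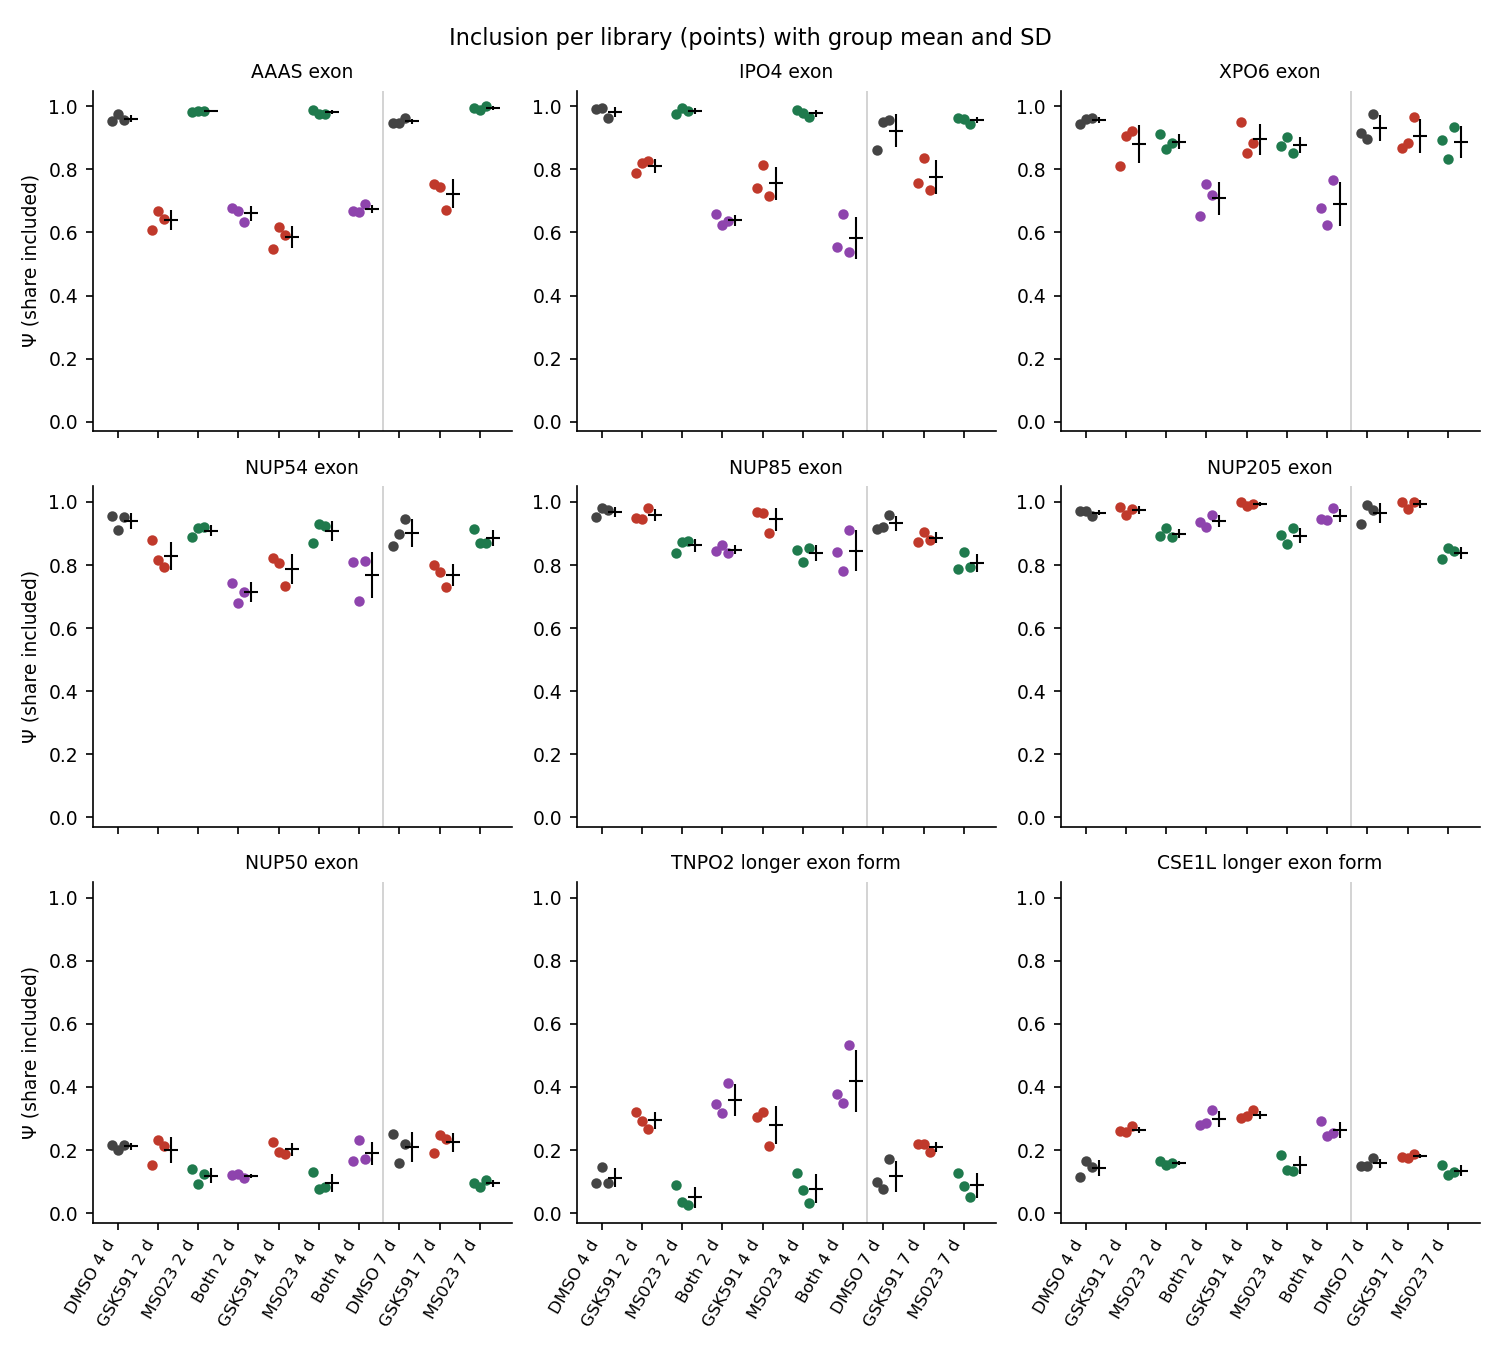
Ψ per library (points, 0 to 1) with group mean and SD (bars, n = 3) for 9 events in the 10 groups, grey for DMSO, red for GSK591, green for MS023, purple for co-treatment, with a vertical line before the 7-day groups. AAAS and IPO4 exons fall with GSK591 and co-treatment, the XPO6 exon is lowest with co-treatment, the NUP85, NUP205, and NUP50 exons are lower with MS023, and the longer TNPO2 and CSE1L forms are higher with GSK591 and co-treatment.

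The Y complex is the outer scaffold of the pore. In it 34 of 291 tested events were called at least once (11.7%, background 16.6%), in 5 of 8 genes, and 21 of them were of NUP85. NUP85 SE is a 114 nt form of exon 8 (chr17:73221219-73221332, plus strand, coding), whose reference form starts 21 nt upstream. Ψ was 0.951, 0.981, and 0.973 in DMSO at 4 days, 0.839, 0.873, and 0.875 with MS023 at 2 days, and 0.849, 0.810, and 0.855 with MS023 at 4 days. All MS023 libraries lay below all DMSO libraries, with ΔΨ of -0.106 and -0.130 (adjusted p = 1.03e-06 and 1.17e-07; limma 0.31 and 0.244). At 7 days DMSO had 0.915, 0.922, and 0.960 and MS023 0.788, 0.840, and 0.795 (ΔΨ -0.125, adjusted p = 0.000203; limma 0.363; lost without library a of MS023).

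Co-treatment lowered NUP85 SE to the same range (ΔΨ -0.120 and -0.123; adjusted p = 3.3e-06 and 1.49e-05; limma 0.0589 and 0.0704). GSK591 alone gave 0.950, 0.947, and 0.981 at 2 days, which was not called, and set against MS023 it was higher by 0.097 at 2 days and 0.107 at 4 days (adjusted p = 0.000181 and 0.000599; limma 0.171 and 0.151). The 135 nt reference exon with the same flanks fell by 0.054 with MS023 at 2 days and 0.067 at 4 days (adjusted p = 1.32e-06 and 9.33e-08). Reads inside the shared part count for both forms. NUP107 had 6 of 74 tested events called at least once (background 16.6%). Its 9 calls were all lower, the largest with co-treatment at 2 days (ΔΨ -0.246, adjusted p = 4.64e-05, a mean of 84.2 reads). The largest called ΔΨ was -0.028 for SEC13, 0.031 for NUP160, and 0.092 for SEH1L.

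Inner ring nucleoporins link the scaffold to the channel. They had 12 called events of 190 tested, with at least 1 in each of the 5 genes, a share of 6.32% that lay below the 16.6% of all events. NUP205 SE is exon 41 of 43 (chr7:135330216-135330344, 129 nt, coding). It stood at 0.970, 0.970, and 0.957 in DMSO at 4 days and at 0.892, 0.918, and 0.890 with MS023 at 2 days (ΔΨ -0.066, adjusted p = 0.00299; limma 0.517), a call kept in 3 of the 6 fits that each left out a library. At 4 days MS023 libraries had 0.895, 0.868, and 0.918 (ΔΨ -0.072, adjusted p = 0.00141; limma 0.448), a call lost without library a or b of MS023. At 7 days it was 0.931, 0.991, and 0.973 in DMSO and 0.818, 0.853, and 0.845 with MS023 (ΔΨ -0.126, adjusted p = 2.57e-06; limma 0.236). With GSK591 it was near 1 (0.994 ± 0.006 at 4 days, SD), and GSK591 against MS023 gave 0.074, 0.101, and 0.154 at 2, 4, and 7 days (adjusted p = 6.12e-05, 7.21e-07, and 2.9e-08; limma 0.144, 0.0305, and 0.0309).

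NUP188 SE, a 74 nt form of exon 25 (chr9:131752432-131752505), was 0.954, 0.986, and 1.0 in DMSO at 4 days and 0.984, 0.890, and 0.663 with co-treatment at 4 days. The groups overlapped, library c of co-treatment was far below the others, and the call (ΔΨ -0.134, adjusted p = 0.00772; limma 0.193) was lost without library b or c of either group. The 107 nt reference exon, which contains the 74 nt form, gave -0.059 in the same comparison (adjusted p = 0.00779). Reads inside the shared part count for both forms. NUP35, NUP155, and NUP93 had called values up to 0.142 in size (NUP35 A3SS with co-treatment at 2 days, -0.142, adjusted p = 0.0137).

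Nuclear basket members had 16 called events of 92 (17.4%, background 16.6%). With MS023 the events called lower were 7 of 53 at 2 days (background 2.23%), 5 of 49 at 4 days (background 2.44%), and 4 of 46 at 7 days (background 2.73%), and 1 more was called higher at 7 days. With GSK591 they were 1 of 62 (background 4.57%), 2 of 55 (background 6.65%), and 0 of 42 (background 4.69%), and with co-treatment 8 of 59 at 2 days (background 9.25%) and 4 of 55 at 4 days (background 8.93%). Most of the MS023 calls, 5, 4, and 5 at the 3 times, were of NUP50, several of them overlapping forms of 1 exon. NUP50, a cofactor of importin-mediated import, carries an alternative exon that is in 4 of its 19 annotated transcripts and not in the reference transcript (NUP50 SE, chr22:45566869-45567058, 190 nt). It stood at 0.217, 0.200, and 0.217 in DMSO at 4 days, 0.141, 0.093, and 0.123 with MS023 at 2 days, and 0.129, 0.077, and 0.084 at 4 days (ΔΨ -0.092 and -0.115, adjusted p = 0.000211 and 3.96e-06; limma 0.697 and 0.56). The 2-day call was lost without library b or c of MS023. At 7 days DMSO had 0.250, 0.158, and 0.220 and MS023 0.096, 0.082, and 0.104 (ΔΨ -0.116, adjusted p = 3.22e-05; limma 0.474; lost without library b of MS023). MS023 libraries lay below DMSO libraries at all 3 times. Co-treatment gave 0.121, 0.124, and 0.112 at 2 days (ΔΨ -0.092, adjusted p = 0.000409; limma 0.364) but 0.165, 0.232, and 0.171 at 4 days, which was not called.

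NUP153 and TPR, the other basket members, had largest called ΔΨ of -0.087 (MS023 at 2 days, adjusted p = 0.0013) and -0.018 (co-treatment at 2 days, adjusted p = 0.0442). On the cytoplasmic face, where export cargo is released, 7 of 172 events were called (4.07%, background 16.6%), in NUP88, NUP214, and GLE1. No RANBP2 or RAE1 event was called, and RANBP2 shares sequence with the RGPD gene family, so its reads may be split. The largest of these values was 0.074 for NUP88 (MXE, co-treatment at 2 days, adjusted p = 0.0165, a mean of 835 reads).

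Importins of the beta family bind cargo and the channel. All 11 had a called event, 45 of 385 in total (11.7%, background 16.6%). Of the importin alpha adaptors 5 of 87 events were called (5.75%), none past 0.022 in size, and the difference between the families was not tested. IPO4 imports histones and ribosomal proteins. IPO4 SE is a 147 nt form of exon 5 (chr14:24656873-24657019, minus strand), annotated in 1 of 21 transcripts, which contains the 130 nt reference exon and starts 17 nt upstream of it. Its sequence is shown because it had the largest change outside NUP62 with co-treatment, with the listed exon in capitals.
IPO4 listed exon: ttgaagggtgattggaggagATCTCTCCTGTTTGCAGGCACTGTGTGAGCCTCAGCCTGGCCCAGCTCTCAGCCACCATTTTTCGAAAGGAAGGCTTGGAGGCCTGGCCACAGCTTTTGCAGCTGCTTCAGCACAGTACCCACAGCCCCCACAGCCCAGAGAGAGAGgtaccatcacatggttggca
The acceptor of the listed form has 5 pyrimidines in 20 bases. Reads inside the part shared with the reference exon count as inclusion of the listed form.

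Ψ of IPO4 SE was 0.991, 0.993, and 0.963 in DMSO at 4 days, and it does not give the share of the listed form alone. With GSK591 it was 0.787, 0.820, and 0.826 at 2 days and 0.740, 0.814, and 0.714 at 4 days. Co-treatment brought it to 0.657, 0.623, and 0.637 at 2 days and 0.554, 0.660, and 0.537 at 4 days. The 3 treatments ranked without overlap at both times, with DMSO highest and co-treatment lowest. ΔΨ was -0.171 and -0.226 for GSK591 (adjusted p = 3.31e-07 and 6.39e-10; limma 0.0895 and 0.0306) and -0.343 and -0.399 for co-treatment (adjusted p = 1.23e-14 and 2.59e-12; limma 0.0118 and 0.00957). Co-treatment was lower than GSK591 by 0.172 and 0.173 (adjusted p = 0.00343 and 0.0218; limma 0.471 and 0.485), and the 4-day call was kept in 2 of the 6 fits that each left out a library. MS023 alone gave 0.975, 0.995, and 0.985 at 2 days and was not called. At 7 days DMSO had 0.862, 0.949, and 0.957 and GSK591 0.757, 0.837, and 0.736 (ΔΨ -0.146, adjusted p = 0.00425; limma 0.22), lost without library a or c of GSK591 or library b or c of DMSO.

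TNPO2, a transportin close to TNPO1, imports RNA-binding proteins. TNPO2 A3SS adds 62 nt upstream of exon 16 (chr19:12816583-12816644, minus strand, in 1 of 18 transcripts), which is not divisible by 3. Its acceptors are shown with the AG in capitals.
TNPO2 acceptor of the longer form: cctcatcactcgggcaacAGgta
TNPO2 acceptor of the reference form: atttcgtgctccctctccAGgaa
The longer form's acceptor had 11 pyrimidines of 20 bases and the reference acceptor 15. The longer form was at 0.094, 0.147, and 0.096 in DMSO at 4 days, 0.322, 0.293, and 0.267 with GSK591 at 2 days, and 0.306, 0.322, and 0.212 at 4 days. Co-treated libraries were at 0.345, 0.316, and 0.414 at 2 days and 0.378, 0.348, and 0.532 at 4 days. Each of these lay above the DMSO libraries, with ΔΨ of 0.182 and 0.168 for GSK591 (adjusted p = 0.00012 for both; limma 0.191 and 0.163) and 0.246 and 0.307 for co-treatment (adjusted p = 1.49e-07 and 1.35e-07; limma 0.08 and 0.0495).

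With MS023 TNPO2 A3SS was 0.089, 0.036, and 0.026 at 2 days (ΔΨ -0.062, adjusted p = 0.0362; limma 0.631), a call kept in 2 of the 6 fits that each left out a library. GSK591 against MS023 gave 0.244, 0.202, and 0.122 at 2, 4, and 7 days (adjusted p = 2.46e-11, 5.42e-09, and 0.00892; limma 0.0776 to 0.155). Among the other importins, events called at least once were 9 of 78 for TNPO1, 6 of 24 for IPO9, 3 of 27 for IPO5, and 6 of 26 for IPO13 (background 16.6%). Their largest called ΔΨ was 0.044, 0.057, -0.056, and -0.183 in that order, the last at a mean of 34.7 reads. KPNB1, the partner of importin alpha, was called in 6 comparisons with no value past 0.012 in size.

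Exportins had 43 called events of 332 (13%, background 16.6%), with at least 1 in each of the 7 genes. XPO6 exports actin and profilin. XPO6 SE is exon 15 of 24 (chr16:28128639-28128783, 145 nt, minus strand, coding, not divisible by 3), between introns of 4207 nt and 4267 nt. It is shown because it was lower with co-treatment than with GSK591, with the exon in capitals.
XPO6 exon 15: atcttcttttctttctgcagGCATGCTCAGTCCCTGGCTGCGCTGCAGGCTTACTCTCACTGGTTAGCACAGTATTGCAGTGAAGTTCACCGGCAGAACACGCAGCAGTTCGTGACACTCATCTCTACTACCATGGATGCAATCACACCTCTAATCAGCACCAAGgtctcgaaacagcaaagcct
Ψ was 0.945, 0.961, and 0.964 in DMSO at 4 days, 0.811, 0.905, and 0.923 with GSK591 at 2 days, and 0.913, 0.866, and 0.885 with MS023 at 2 days. With co-treatment it was 0.652, 0.753, and 0.719 at 2 days and 0.679, 0.625, and 0.765 at 4 days. Co-treated libraries were below every library of the other groups at the same time.

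ΔΨ of XPO6 SE was -0.249 and -0.267 with co-treatment (adjusted p = 6.1e-13 and 7.66e-12; limma 0.0252 and 0.0202). It was -0.077 and -0.062 with GSK591 (adjusted p = 0.00164 and 0.00201; limma 0.383 and 0.395) and -0.069 and -0.080 with MS023 (adjusted p = 0.00014 and 3.18e-05; limma 0.578 and 0.469). Of the GSK591 calls, that at 2 days was lost without library a of GSK591, and that at 4 days, where the groups overlapped, was kept in 3 of the 6 fits that each left out a library. The MS023 call at 2 days was lost without library b or c of MS023. Co-treatment was lower than GSK591 by 0.172 and 0.205 (adjusted p = 1.33e-06 and 3.34e-09; limma 0.414 and 0.299). At 7 days neither inhibitor was called. An MXE that sets exon 15 against exon 14 (XPO6 MXE, Ψ here the exon 14 form) rose by 0.146 and 0.151 with co-treatment (adjusted p = 0.00083 and 0.001; limma 0.0358 and 0.0251) and shares reads with XPO6 SE.

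CSE1L returns importin alpha to the cytoplasm. CSE1L A3SS adds 173 nt (chr20:47712713-47712885, plus strand, not divisible by 3, in 1 of 3 transcripts) to the 5′ side of the last exon. Its acceptors are shown with the AG in capitals.
CSE1L acceptor of the longer form: cttatggatcttttctttAGacc
CSE1L acceptor of the shorter form: gtgtttcccatctcttgtAGgtt
Both had 14 pyrimidines in 20 bases. The longer form stood at 0.116, 0.165, and 0.147 in DMSO at 4 days, 0.260, 0.257, and 0.276 with GSK591 at 2 days, and 0.300, 0.307, and 0.326 at 4 days. Co-treated libraries had 0.280, 0.285, and 0.326 at 2 days and 0.293, 0.243, and 0.254 at 4 days. All 12 lay above all DMSO libraries, and with 507 to 2283 reads per library this was among the deepest of the described events.

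ΔΨ of CSE1L A3SS was 0.122 and 0.168 with GSK591 (adjusted p = 4.46e-12 and 4.9e-16) and 0.154 and 0.121 with co-treatment (adjusted p = 6.77e-15 and 1.03e-08), with limma at 0.136 to 0.341. At 7 days DMSO had 0.150, 0.150, and 0.174 and GSK591 0.179, 0.174, and 0.188, which was not called. The GSK591 effect at 7 days was smaller than at 4 days by 0.145 (interaction, adjusted p = 1.71e-05; limma 0.461), a difference called in all 12 fits that each left out a library. MS023 libraries were at 0.165, 0.151, and 0.158 at 2 days, within the DMSO range. XPO1, the main receptor for leucine-rich export signals, had 16 of 122 tested events called at least once (background 16.6%). It had 50 calls in 468 tests over the 8 comparisons, and 41 of the calls were lower. Over all events, too, lower calls outnumbered higher ones in each comparison with DMSO. The largest called ΔΨ of XPO1 was -0.132 with GSK591 at 2 days at a mean of 47.3 reads. XPOT, the tRNA exportin, had an RI called with MS023 at 7 days (0.052, adjusted p = 0.0014), and XPO7 an A5SS called with GSK591 at 2 days (0.050, adjusted p = 0.0013).

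RANBP1 and RANGAP1 stimulate GTP hydrolysis by Ran, and 9 of their 67 events were called (13.4%, background 16.6%). RANBP1 had an RI called with GSK591 at 4 days (ΔΨ 0.073, adjusted p = 8.89e-09, a mean of 1139 reads), and its GSK591 effect was smaller at 7 than at 4 days by 0.048 (adjusted p = 0.0125). RANGAP1 had an A3SS called with GSK591 at 4 days (0.359, adjusted p = 0.00665) on a mean of only 36.5 reads.

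Direct comparisons of the inhibitors used the same model. GSK591 and MS023 differed in 71 of 727 member events at 2 days (9.77%, background 11.7%), 95 of 709 at 4 days (13.4%, background 17.1%), and 54 of 582 at 7 days (9.28%, background 14.7%). Co-treatment differed from GSK591 in 28 of 764 at 2 days (3.66%, background 4.41%) and 33 of 696 at 4 days (4.74%, background 6.53%). The GSK591 effect differed between 7 and 4 days in 9 of 622 member events (1.45%, background 1.83%), which are those of NUP62, CSE1L, RANBP1, RANGAP1, GLE1, and NUP54. For MS023 0 of 638 were called (background 0.0779%), 57 had an unadjusted p under 0.05, and limma also called 0.

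Genes of the pathway outside the set were counted in the same way, against the same background over all events. Of 18 other pore and Ran genes 14 could be tested. Their called events with GSK591 were 11 of 224 at 2 days (4.91%, background 7.02%), 17 of 228 at 4 days (7.46%, background 11.2%), and 13 of 215 at 7 days (6.05%, background 8.93%). With MS023 they were 5 of 256 (1.95%, background 3.16%), 10 of 233 (4.29%, background 3.75%), and 2 of 212 (0.943%, background 4.75%), and with co-treatment 24 of 224 at 2 days (10.7%, background 13.4%) and 30 of 272 at 4 days (11%, background 14.7%). Like the members, these genes lay near or below the background.

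Among 19 mRNA export genes 18 could be tested. GSK591 changed 18 of 237 of their events at 2 days (7.59%, background 7.02%), 33 of 259 at 4 days (12.7%, background 11.2%), and 19 of 219 at 7 days (8.68%, background 8.93%). The counts with MS023 were 6 of 231 (2.6%, background 3.16%), 7 of 247 (2.83%, background 3.75%), and 11 of 211 (5.21%, background 4.75%), and with co-treatment 43 of 258 at 2 days (16.7%, background 13.4%) and 42 of 250 at 4 days (16.8%, background 14.7%). These shares lay on both sides of the background.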

How the data were processed

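The deposited files were 8 tables of rMATS, each setting 3 inhibitor libraries against 3 DMSO libraries for 5 event types. Per the study's methods, stranded poly(A)-RNA libraries were read as 150 nt paired ends, trimmed, and aligned to hg19 with STAR before rMATS. The submitters' processing notes name Trim Galore 0.6.5 and STAR 2.4.2a. The deposited inclusion and skipping counts are read counts per event, form, and library, as the authors' rMATS wrote them. They include reads inside the alternative segment, so long segments collect more inclusion reads. The authors' p-values, false discovery rates, and differences in inclusion were not used.

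Ψ was computed from the counts and the deposited form lengths. A quasi-binomial model was fitted to the counts in R 4.3.3. Its dispersion was moderated with limma 3.58.1, with 1 as its lowest value. Events with at least 10 reads in every library were tested by an F test, and p-values were adjusted by Benjamini-Hochberg within event type. Events with no read of 1 form in any compared library were left out. On simulated data with known changes the model called few of the changed events. Few events were changed there, such as 94 by a log2 odds of 1 and 93 by 2 among 107592 for GSK591 at 2 days. In the data 7.02% of events were called in that comparison. The adjustment was thus stricter in the simulation, and its rates do not give those of the data. Against DMSO it called 7.3% to 9.6% of events changed by a log2 odds of 1 and 15.2% to 25.8% of those changed by 2. For the GSK591 effect at 7 against 4 days it called 2% and 12%. Of the simulated calls against DMSO, 5 of 27 were false with MS023 at 2 days and 3 of 36 with GSK591 at 2 days. With co-treatment at 4 days 3 of 34 were false, and with GSK591 at 7 days 1 of 31. Between GSK591 and MS023 at 4 days 3 of 35 were false, and for the GSK591 effect at 7 against 4 days 0 of 14. Of the unchanged events 6.01% to 6.41% had an unadjusted p under 0.05. An event that was not called may still have changed. A limma fit used log2 odds with a prior count of 0.5. Other alternatives were at least 20 reads or at least 1 read, adjustment over all types, no length correction, and leaving out each library, and a dispersion trend was chosen after seeing the data. All events were fitted and only member events are given.

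Described individually were segments called in at least 2 comparisons with DMSO in the same direction, with a difference of at least 0.1 and at least 50 reads on average in 1 of them, and the largest called event of each comparison with at least 50 reads on average. Members and lists were chosen with earlier results of these data known. Sequences and exons are from GRCh37 and GENCODE release 44 lifted to it, and 1566 of 1568 checked introns had splice-site ends there. The other 66 samples of the series were not analysed here.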

Additional observations from a re-analysis of the deposited data

Results flagged for a closer look

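The GSK591 effect differed between 7 and 4 days, by the interaction term of the quasi-binomial model, in 4 of the described events. For the middle leader exon of NUP62 the difference of the effects was 0.239 for the shorter form after the long first exon (SE a), 0.184 for the longer form after the long first exon (SE b), and 0.381 for the longer form after the short first exon (SE c). For the longer last exon of CSE1L it was -0.145. The 3 NUP62 events share reads, and each of the 4 differences was called in all 12 fits that left out 1 library, while limma called none of them (adjusted p = 0.296 to 0.587).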

How the results depend on the processing

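No paired analysis was possible because the columns carry no replicate numbers. Of 156 called values of the described events, none changed direction. Limma on log2 odds kept 38 past the threshold and the dispersion trend 140, no length correction kept 156, and 782 of 960 values were kept when a library was left out. Limma called fewer member events: against DMSO 2, 22, and 7 with GSK591 at 2, 4, and 7 days, 0 with MS023 at each time (78, 88, and 74 had an unadjusted p under 0.05), and 50 and 46 with co-treatment at 2 and 4 days. It called 10, 25, and 17 between GSK591 and MS023, 0 and 0 between co-treatment and GSK591 (71 and 66 with an unadjusted p under 0.05), and 1 for the GSK591 effect at 7 against 4 days. The dispersion trend called 15, 17, and 13 with MS023 at 2, 4, and 7 days, 25 with GSK591 at 7 days, and 18 between co-treatment and GSK591 at 2 days. The cause was not tested. Neither read minimum nor adjustment over all types moved a count by over 1.5 times.

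With a library left out, which also leaves fewer samples, the counts ranged from 30 to 40, 48 to 61, and 16 to 24 for GSK591 at 2, 4, and 7 days, from 5 to 19, 10 to 26, and 8 to 14 for MS023, and from 64 to 92 and 57 to 84 for co-treatment. Between GSK591 and MS023 they ranged from 40 to 57, 58 to 68, and 25 to 36, between co-treatment and GSK591 from 10 to 23 and 14 to 22, and for the effects at 7 against 4 days from 7 to 11 with GSK591 and 0 to 0 with MS023. With MS023 at 2 and 7 days and with GSK591 at 7 days, each library left out moved the count by over 1.5 times. With co-treatment at both times each co-treated library did so, as did library a of DMSO in the 4-day comparison. With MS023 at 4 days it was each MS023 library and library b of DMSO, with GSK591 at 4 days library a or b of GSK591, and with GSK591 at 2 days library b of GSK591 or library c of DMSO. Between GSK591 and MS023 each MS023 library did so at 2 and 7 days, and library b or c of either inhibitor at 4 days. Between co-treatment and GSK591 it was each co-treated library at 2 days, and at 4 days library a or b of co-treatment and each GSK591 library. The lowest values came without library b of GSK591 at 2 days (30) and library c of MS023 at 2 days (5). Depth limits events with few reads of the rarer form, such as NUP54 SE b and NUP98 SE a.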
